A study of Mus musculus with 2 samples.

Results

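The genes described here are 9 regulators and markers of naive and stem-like T cells: Tcf7, Lef1, Bach2, Satb1, Id3, Foxo1, Foxp1, Slamf6 and Dapl1. They were chosen by name as a set known from T cell biology and are 9 of the 55357 genes in the files. They were followed in single cells from the hearts of wild type (WT) mice 7 days after myocardial infarction (MI, the loss of heart muscle when a coronary vessel is blocked). One library came from MI mice given anti-IgG, the comparison antibody, and 1 library from MI mice given anti-PD1, an antibody against the inhibitory receptor encoded by Pdcd1. The labels give no age, dose, injection schedule or number of pooled hearts. With 1 library for each antibody no difference has a replicate check, no test could be run, and antibody, animal and preparation cannot be told apart. The 95% intervals below cover counting error only, and they are too narrow where transcripts lie together in few cells.

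Naive T cells keep a transcriptional program that holds them quiescent and lets them recirculate through lymph nodes, and the program is shut down as cells become effectors. TCF-1 (encoded by Tcf7) and LEF-1 are related DNA-binding proteins that can pair with beta-catenin and are central to it, FOXO1 drives homing and survival genes, and BACH2 represses effector genes. In chronic infection and tumours a stem-like T cell that carries PD1 together with TCF-1 and Slamf6 is known as the source of new effector cells under PD1 blockade, so these genes are of interest in a heart treated with that antibody.

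Transcripts are given as unique molecular identifiers (UMIs, each standing for 1 captured RNA molecule) per 1000000 UMIs of the cells in a group (UPM). There were 4380 barcodes with 22806806 UMIs under anti-IgG and 6026 with 29046341 under anti-PD1. Cells with at least 300 genes, at least 500 UMIs, at most 10% mitochondrial UMIs and a UMI of Cd3d, Cd3e or Cd3g numbered 3992 and 5352, with medians of 4078.5 and 3864 UMIs, and are called Cd3 cells. All 7 T cell markers looked for were present in both (4068 and 3872 UPM). The series text speaks of sorted T cells, while the protocol in the labels describes no sort, and 317 and 483 cells that passed the filters had no Cd3 UMI. The libraries also differed in transcripts of other origin within Cd3 cells. Macrophage markers summed to 948 and 624 UPM, fibroblast markers to 109 and 33.7, endothelial markers to 185 and 116, B cell markers to 66.5 and 148, red cell markers to 76.8 and 0.266, and heat shock and dissociation genes to 2282 and 1573, with every listed gene above 0 in both. Their part in the results below was not tested unless a value is given. The libraries shared 47 barcodes.

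The upstream sequences of 3 genes are printed as examples of windows that hold the letters that proteins of this gene set are known to bind: the core of TCF-1 and LEF-1 sites (CTTTGA, or TCAAAG on the other strand) and the forkhead core of FOXO1 and FOXP1 sites (TGTTTAC, or GTAAACA on the other strand). RefSeq (GRCm38.p6) gave 19 windows for the 9 genes, and the 250 bases before each start were searched on both strands. The TCF/LEF core stood in 3 of the 19 windows, 1 each of Lef1, Bach2 and Foxp1 (the last is not printed), against 13.8% of all 32851 windows of the same length, and the forkhead core in 1 of 19, against 3.17% of all. The AP-1 letters TGANTCA, the kind of site at which BACH2 competes, stood in 0 of 19, against 6.75% of all. The Lef1 window, chr3:131156044-131156293 on the plus strand, lies before an internal start in an intron of the longer transcripts and holds the TCF/LEF core at 2 places. The Bach2 window, chr4:32417185-32417434 on the plus strand, likewise lies before an internal start and holds it at 1 place. The Dapl1 window, chr2:59484403-59484652 on the plus strand, lies just before the gene and holds the forkhead core. Capitals mark the matches, which are descriptions of these letters and not measured binding sites.
Lef1: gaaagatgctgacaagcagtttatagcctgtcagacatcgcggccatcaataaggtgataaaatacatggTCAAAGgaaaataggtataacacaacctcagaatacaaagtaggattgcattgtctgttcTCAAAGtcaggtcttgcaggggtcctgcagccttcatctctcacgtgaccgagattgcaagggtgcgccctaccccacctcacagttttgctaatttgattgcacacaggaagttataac
Bach2: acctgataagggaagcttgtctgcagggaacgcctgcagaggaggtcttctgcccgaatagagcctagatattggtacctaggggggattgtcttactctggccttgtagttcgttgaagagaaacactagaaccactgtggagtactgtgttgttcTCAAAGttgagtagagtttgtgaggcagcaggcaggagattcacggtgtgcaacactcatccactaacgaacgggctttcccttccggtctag
Dapl1: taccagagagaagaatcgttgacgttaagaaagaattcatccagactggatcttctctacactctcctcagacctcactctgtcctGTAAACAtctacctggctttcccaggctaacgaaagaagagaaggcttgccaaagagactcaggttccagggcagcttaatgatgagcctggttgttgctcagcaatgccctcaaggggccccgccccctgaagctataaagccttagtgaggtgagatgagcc

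The first comparison asked in which T cells of the infarcted heart these genes were read. Cd3 cells were divided into gates that use none of the 9 genes. Cells with a Foxp3 UMI, the regulatory T cell gene, were the Foxp3 gate (298 anti-IgG and 396 anti-PD1 cells). Trdc without Ncr1 marked gamma-delta T cells (370 and 677). Of the rest, cells with a UMI of either of 2 naive gate genes, of which 1 is the chemokine receptor gene Ccr7, and with no UMI of 9 effector genes (S100a4, Cxcr6, Nkg7, Ccl5, Gzma, Gzmb, Gzmk, Ifng and Il17a) were the naive gate (1108 and 1423). Cells with at least 2 effector UMIs and no UMI of the naive gate genes were the effector gate (1174 and 1392), and 1042 and 1464 cells stayed ungated. The Foxp3 gate was not pure. Cd8a was read in 16.1% and 17.7% of its cells, Nkg7 in 27.2% and 31.1% and Trdc in 4.03% and 9.60%. The part of this mix in its values was not tested. All 9 genes were at least 1.5 times higher in the naive than in the effector gate in both libraries, against 6.26% of the 9291 genes measured there. All 9 were also higher by that fold in naive than in gamma-delta cells (7.13% of all genes), and 7 of 9 in naive than in Foxp3 cells (5.11%). Over the ungated cells, which mix both kinds, 4 of 9 passed (2.10%).

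**Figure D1:**
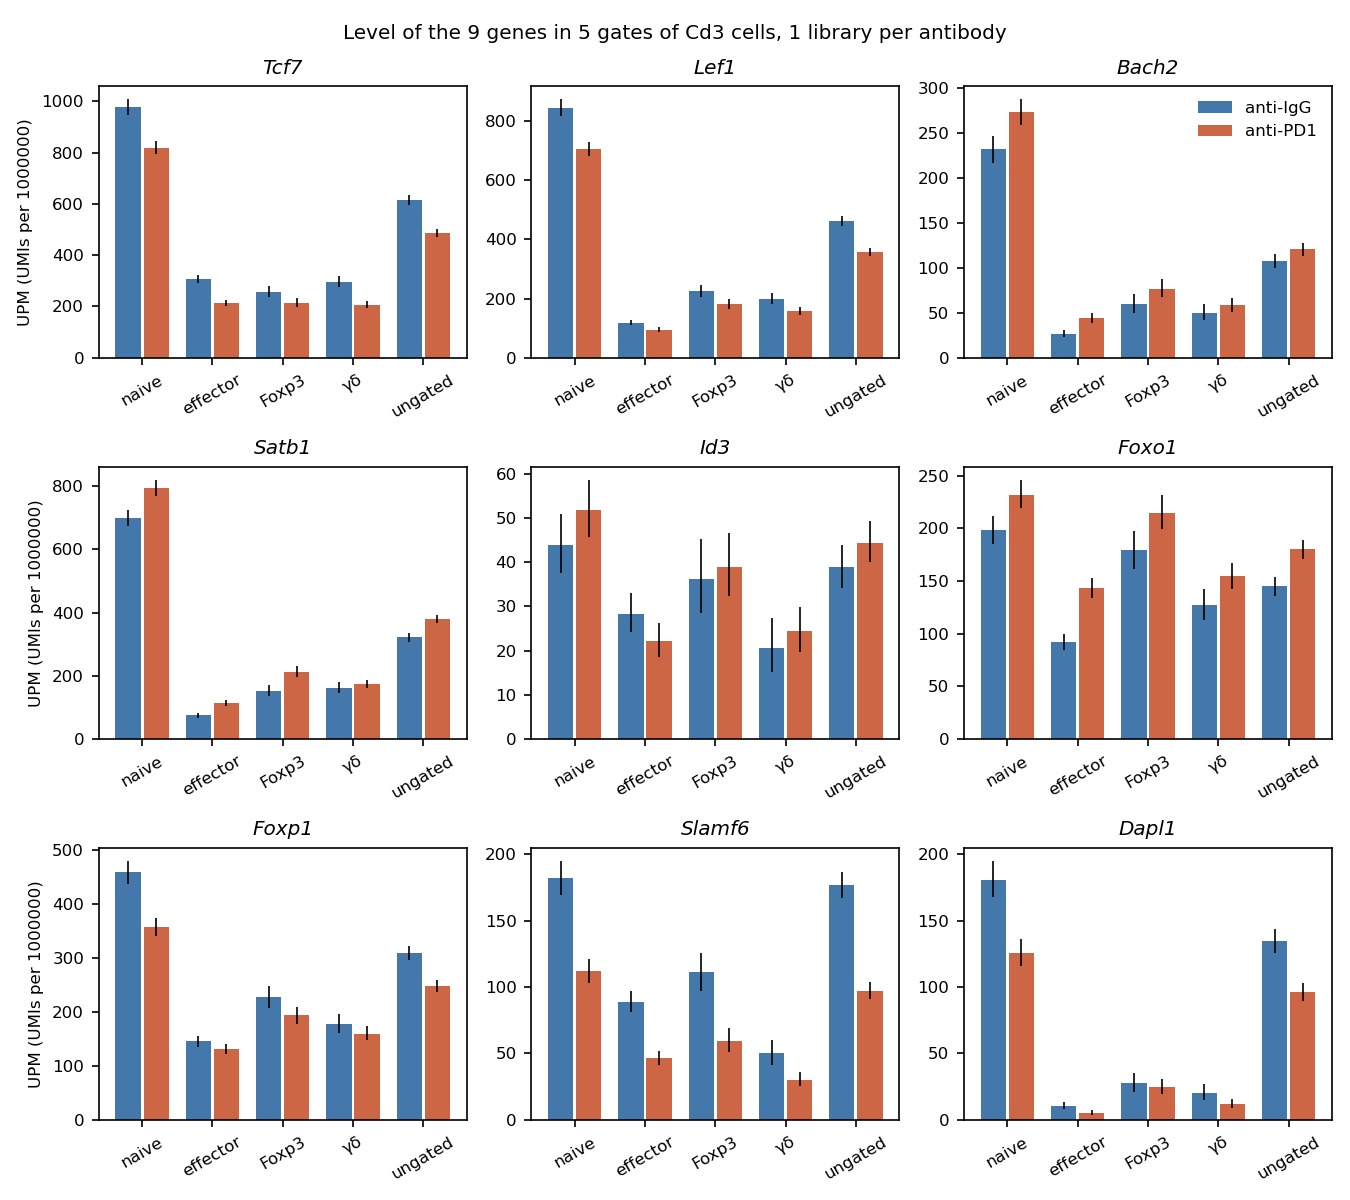
Level of each gene in UPM (vertical axes) in 5 gates of Cd3 cells (horizontal axes), in the anti-IgG (blue) and anti-PD1 (orange) library, with 95% counting intervals. The naive gate holds the highest bar of its library for every gene, while the order of the other gates differs between genes.

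Tcf7 stood at 978 UPM in naive anti-IgG cells and at 307 in the effector, 256 in the Foxp3, 297 in the gamma-delta and 614 in the ungated gate. In the anti-PD1 library the same gates held 819, 213, 215, 207 and 485. The naive level was 3.19 times (3.01 to 3.37) the effector level under anti-IgG and 3.84 times (3.61 to 4.10) under anti-PD1. Effector, Foxp3 and gamma-delta cells thus still held Tcf7 transcripts. In macrophages without Cd3 UMIs, a measure of free RNA, Tcf7 was seen in 2.04% of 49 and 1.90% of 105 cells (median depths 5188 and 5168 UMIs), against 63.7% and 46.9% of effector cells (median depths 4055 and 3769). Lef1 had a wider contrast between naive and effector cells, from 846 to 118 UPM under anti-IgG, a ratio of 7.15 (6.58 to 7.78), and from 705 to 94.8 under anti-PD1, a ratio of 7.44 (6.81 to 8.14). In Foxp3 cells Lef1 stood at 226 and 181, above its effector level in both libraries.

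Bach2 and Satb1, a chromatin organiser of thymocytes and naive T cells, followed Lef1. Bach2 stood at 232 UPM in naive and 26.7 in effector cells under anti-IgG, and at 273 and 44.3 under anti-PD1, ratios of 8.69 (7.31 to 10.4) and 6.16 (5.40 to 7.06). Satb1 went from 699 to 74.0 and from 795 to 113, ratios of 9.44 (8.52 to 10.5) and 7.01 (6.46 to 7.61). The intervals of the 2 libraries did not overlap for either gene, and the smaller contrast was that of the anti-PD1 library. Foxp1, a forkhead repressor of T cell activation, had a lesser contrast, with 458 and 145 UPM under anti-IgG (3.16, 2.91 to 3.44) and 356 and 131 under anti-PD1 (2.72, 2.49 to 2.96).

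Foxo1 had smaller contrasts, 2.16 (1.93 to 2.42) and 1.62 (1.48 to 1.77) over effector cells. It stood at 198 UPM in naive, 91.7 in effector, 179 in Foxp3 and 127 in gamma-delta cells under anti-IgG, and at 232, 143, 215 and 155 under anti-PD1. The naive and Foxp3 levels did not differ beyond counting error, with ratios of 1.11 (0.981 to 1.26) and 1.08 (0.980 to 1.19). Id3, an inhibitor of E proteins, was read in few cells, 9.44% and 10.6% of Cd3 cells, and its UMIs were clumped. It stood at 43.9 and 51.9 UPM in naive and 28.3 and 22.2 in effector cells, and 1 anti-IgG effector cell held 46 of that gate's 160 Id3 UMIs. Id3 is also a gene of stromal cells here, at 1427 and 1928 UPM in fibroblasts and 418 and 553 in endothelial cells without Cd3 UMIs.

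Slamf6, a SLAM family receptor that marks stem-like cells, was 2.05 times (1.83 to 2.30) and 2.41 times (2.08 to 2.80) as high in naive as in effector cells, from 182 and 88.7 UPM under anti-IgG and 112 and 46.3 under anti-PD1. In the ungated cells it stood at 177 and 97.1, and under anti-IgG it did not differ from the naive level beyond counting error (1.03, 0.937 to 1.13). Dapl1, a gene read in naive and central memory CD8 cells, had the widest contrast of the 9. It stood at 181 UPM in naive and 10.2 in effector cells under anti-IgG, and at 126 and 5.33 under anti-PD1, ratios of 17.7 (13.5 to 23.5) and 23.6 (16.5 to 34.8). The effector values rest on 58 and 32 UMIs, of which 1 cell held 8 and 1 cell held 5.

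**Figure D2:**
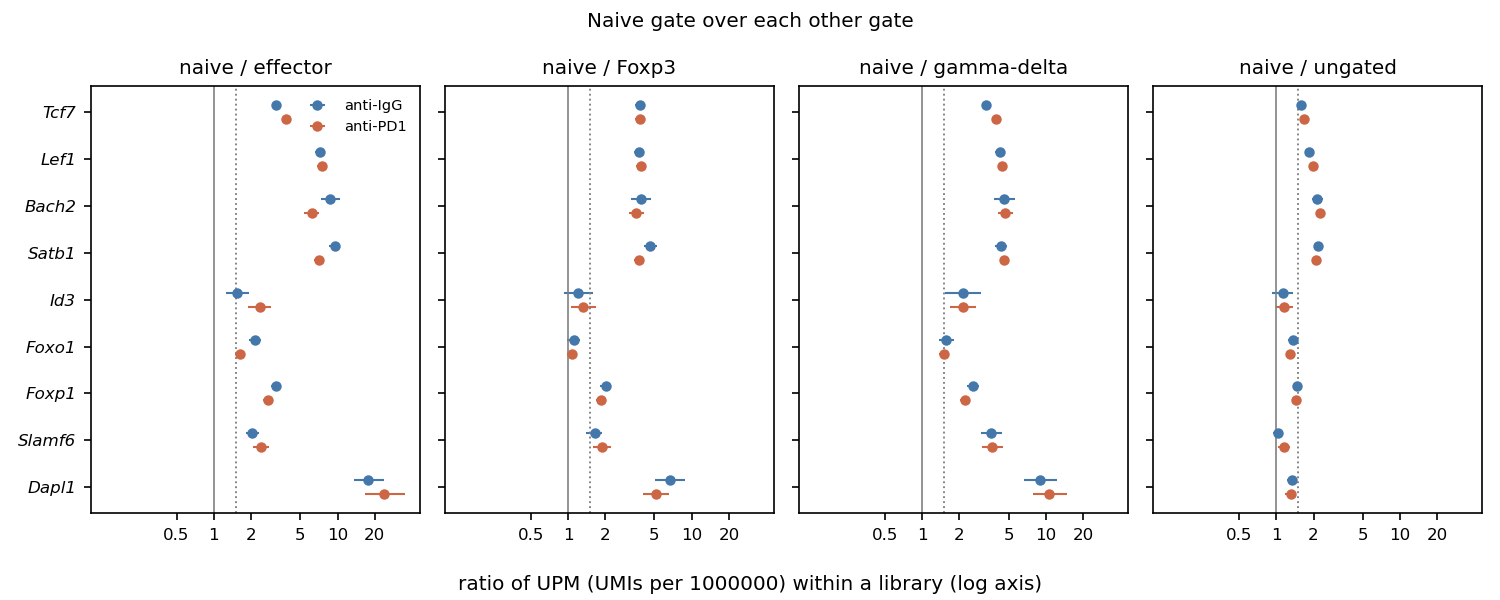
Ratio of the naive level over that of each other gate within a library (horizontal axes, log scale) for the 9 genes (vertical axis), with 95% counting intervals, anti-IgG in blue and anti-PD1 in orange. The dotted line marks 1.5, which all 9 genes pass against the effector gate while Id3 and Foxo1 lie left of it against the Foxp3 gate.

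Along the effector genes the levels of the members differed in shape. Among cells without Foxp3 and Trdc UMIs, Satb1 dropped at the first step, from 659.7 UPM in anti-IgG cells with 0 effector UMIs to 405 in those with 1, and reached 163 in those with 10 or more. The anti-PD1 values were 768, 432 and 211. Bach2 did the same under anti-PD1, from 265 to 137 and then 71.3, and went from 224 to 168 and 51.7 under anti-IgG. Dapl1 instead held its level through cells with 2 to 4 effector UMIs, at 168 and then 162 under anti-IgG and 114 and then 125 under anti-PD1, and stood at 142 and 86.9 in cells with 5 to 9 and at 40.3 and 35.3 in cells with 10 or more. Slamf6 was highest in neither end. It went from 189 at 0 to 238 at 1 effector UMI and 103 at 10 or more under anti-IgG, and from 119.8 to 145 and 52.7 under anti-PD1. Tcf7 lay between, at 960.3, 627 and 375 for 0, 2 to 4 and 10 or more effector UMIs under anti-IgG and at 807, 543 and 285 under anti-PD1. Median depth was higher at each later step, from 3333 to 5036 UMIs per cell under anti-IgG and from 3130 to 4600 under anti-PD1, and its part was not tested. The steps also mix CD4 and CD8 cells, and the part of that mix was not tested. Dapl1 stood at 222 and 156 UPM in ungated CD8 cells but at 42.1 and 35.9 in ungated CD4 cells. The steps are therefore not an order of loss within 1 kind of cell.

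**Figure D3:**
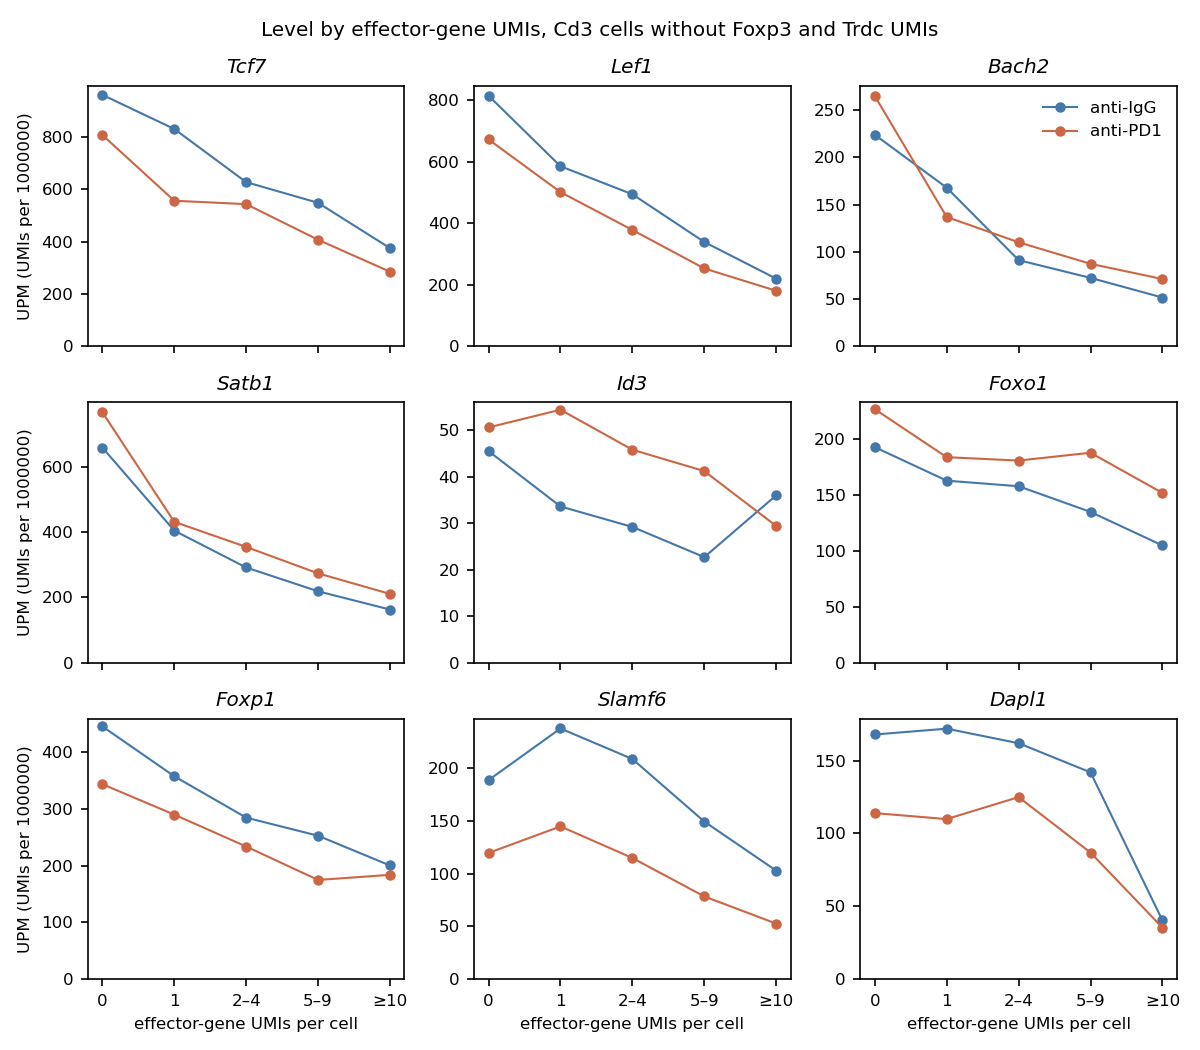
Level of each gene in UPM (vertical axes) in Cd3 cells without Foxp3 and Trdc UMIs, divided by the number of effector gene UMIs per cell (horizontal axes), anti-IgG in blue and anti-PD1 in orange. Satb1 drops from 659.7 to 405 at the first step under anti-IgG, whereas Dapl1 stands at 168, 172 and 162 over the first 3 steps of that library and Slamf6 peaks at 1 effector UMI.

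The naive gate left out most naive CD8 cells, because these hold a few Nkg7 UMIs: it held 67 and 74 CD8 cells, while 402 and 566 CD8 cells were ungated. With Nkg7 not used, a choice made after this was seen, there were 248 and 333 naive CD8 and 603 and 645 naive CD4 cells. Dapl1 was higher in the CD8 cells, at 300.3 against 165 UPM under anti-IgG and 230.4 against 129.8 under anti-PD1, ratios of 1.82 (1.57 to 2.12) and 1.78 (1.52 to 2.07). Bach2 was lower in them, at 140.4 against 228 and 147 against 267 (0.615, 0.512 to 0.736, and 0.552, 0.473 to 0.642). Tcf7, at ratios of 0.729 and 0.706, and Satb1, at 0.660 and 0.764, were lower as well, and Lef1 and Foxp1 stood at 0.81 to 0.89 of the CD4 level in both libraries. Slamf6 stood at 200.5 against 199 under anti-IgG and at 89.4 against 114 under anti-PD1.

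Gamma-delta cells were not uniform either. Among gamma-delta cells, those without a UMI of the Trdv4 and Trgv6 segments (96 and 143), which mark the interleukin 17 producing lineage, held more Tcf7 than those with one (274 and 534), at 473 against 223 and 415 against 141. Slamf6 was 4.91 times (3.29 to 7.43) and 5.11 times (3.47 to 7.58) and Id3 7.94 times (3.97 to 17.3) and 6.20 times (3.99 to 9.80) as high in the cells without these segments, from 37 and 63 Id3 UMIs against 11 and 32.

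Several members were often read in 1 naive cell. With each cell thinned to 1000 UMIs, naive cells held a median of 3 of the 9 genes in both libraries and effector cells a median of 1. At least 4 of them were seen in 28.7% (26.0 to 31.4) of naive anti-IgG and 22.7% (20.5 to 25.0) of naive anti-PD1 cells, and in 0.602% and 0.724% of effector cells. Most pairs of members were not seen together beyond counting error. In naive cells the intervals of the share with and without the first gene lay apart for 2 of 64 ordered pairs under anti-IgG, which are Lef1 and Satb1 in both orders, and for 0 of 72 under anti-PD1. In effector cells they did for 2 of 48 and 0 of 56. Of pairs picked after their values were seen, Satb1 was read in 54.5% (50.5 to 58.4) of anti-IgG naive cells with a Lef1 UMI and in 44.2% (39.6 to 48.8) of those without, and in 58.3% (54.5 to 62.0) and 51.5% (47.7 to 55.2) under anti-PD1, where the intervals overlap. In the effector gate Tcf7 was read in 41.2% (31.5 to 51.4) of the 102 anti-IgG cells with a Slamf6 UMI and in 25.0% (22.4 to 27.7) of the 1061 without one, and in 30.2% (18.3 to 44.3) of 53 and 16.9% (14.9 to 19.0) of the others under anti-PD1, where the intervals overlap.

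The second comparison asked how the 9 genes differed between the antibodies. Over all Cd3 cells the set divided: 5 genes, Tcf7, Lef1, Foxp1, Slamf6 and Dapl1, were lower in the anti-PD1 library with intervals below 1, and 3, Bach2, Satb1 and Foxo1, were higher with intervals above 1. Of all 12849 genes with at least 50 summed UMIs, a minimum that all 9 passed, 38.7% had intervals below 1 and 16.9% above 1, so intervals this narrow were common. Past a ratio of 1.5 stood 1 gene downward, Slamf6 (11.8% of all genes), and 0 upward (5.88%). The median log2 ratio of the 9 was -0.28, against -0.13 over all genes, whose middle range from the lower to the upper quartile was -0.35 to 0.09. With scaling on the median gene in place of the total, all ratios were higher, from 0.609 for Slamf6 to 1.39 for Foxo1, the 5 lower genes stayed below 1, and Id3 joined the higher ones at 1.17 (1.06 to 1.29).

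**Figure D4:**
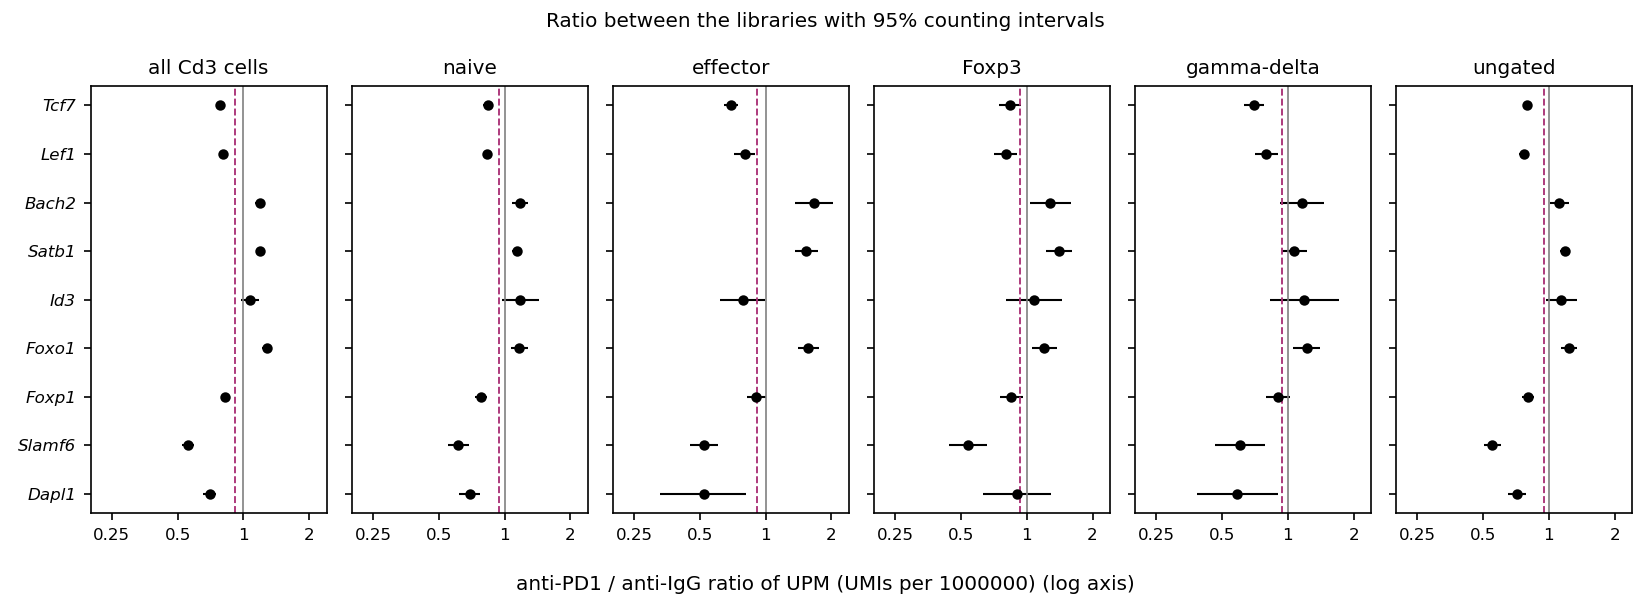
Ratio of the anti-PD1 over the anti-IgG level (horizontal axes, log scale) of the 9 genes (vertical axis) in all Cd3 cells and in each gate, with 95% counting intervals. The solid line marks 1 and the dashed line the median of all genes in that group. Bach2, Satb1 and Foxo1 lie right of both lines and Tcf7, Lef1 and Slamf6 left of both in every panel.

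Slamf6 went from 133 to 74.0 UPM, a ratio of 0.558 (0.526 to 0.592), and was seen in 39.4% and 24.4% of Cd3 cells (12.3% and 7.23% at 1000 UMIs per cell). It was lower in each gate, at 0.615 (0.549 to 0.688) in naive, 0.522 (0.449 to 0.606) in effector, 0.539 (0.442 to 0.656) in Foxp3 and 0.604 (0.463 to 0.786) in gamma-delta cells. Dapl1 went from 85.8 to 60.1, a ratio of 0.701 (0.654 to 0.750), with 0.693 (0.622 to 0.773) in naive cells. In gamma-delta cells it stood at 0.586 (0.382 to 0.899), and at 1.01 (0.591 to 1.77) without cells that held Hspa1a or Hspa1b UMIs. In Foxp3 cells, with 59 and 75 UMIs, its interval included 1 (0.899, 0.631 to 1.29). In gamma-delta cells with Trdv4 or Trgv6 it went from 22.6 to 6.09 (0.270, 0.144 to 0.486, on 37 and 18 UMIs), and in those without from 14.4 to 29.8 (2.07, 0.975 to 4.77, on 10 and 28 UMIs).

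Tcf7 went from 528 to 413 UPM, a ratio of 0.782 (0.761 to 0.803), and stood at 0.837 (0.801 to 0.875) in naive, 0.694 (0.646 to 0.747) in effector, 0.841 (0.750 to 0.943) in Foxp3 and 0.698 (0.630 to 0.774) in gamma-delta cells. Its share of cells went from 76.6% to 66.2%, and at 1000 UMIs per cell from 40.7% to 31.9%. Lef1 went from 389 to 312 (0.803, 0.778 to 0.828), with ratios from 0.771 to 0.833 over the 5 gates. In gamma-delta cells with Trdv4 or Trgv6, Tcf7 stood at 0.634 (0.550 to 0.732) and Lef1 at 0.701 (0.596 to 0.823). In those without, both intervals included 1, at 0.878 (0.756 to 1.02) for Tcf7 and 1.06 (0.874 to 1.28) for Lef1. Foxp1 went from 269 to 222 (0.824, 0.794 to 0.854), with 0.779 (0.729 to 0.832) in naive cells, while in effector (0.906, 0.821 to 1.00) and gamma-delta cells (0.898, 0.792 to 1.02) its interval reached 1. On the log2 scale Tcf7, at -0.35, lay at the lower quartile of all genes.

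Foxo1 went from 142 to 182 UPM (1.28, 1.22 to 1.34), Satb1 from 291 to 346 (1.19, 1.15 to 1.23) and Bach2 from 98.3 to 117 (1.19, 1.13 to 1.26). Their ratios were larger in effector cells, where all 3 passed 1.5 (6.15% of all genes there): Bach2 stood at 1.66 (1.36 to 2.04), Foxo1 at 1.56 (1.40 to 1.75) and Satb1 at 1.53 (1.36 to 1.74). In naive cells they stood at 1.18 (1.08 to 1.28), 1.17 (1.07 to 1.28) and 1.14 (1.08 to 1.19). The effector and naive intervals of each gene did not overlap, and the difference between gates was not tested. With cells thinned to 1000 UMIs this no longer held: in effector cells Bach2 stood at 1.93 (1.25 to 3.04), Foxo1 at 1.34 (1.06 to 1.70) and Satb1 at 1.27 (0.963 to 1.68), so that Bach2 alone passed 1.5, and in naive cells they stood at 1.13 (0.960 to 1.33), 1.10 (0.924 to 1.31) and 1.13 (1.04 to 1.24). In Foxp3 cells Satb1 stood at 1.41 (1.23 to 1.61), Foxo1 at 1.20 (1.06 to 1.37) and Bach2 at 1.28 (1.03 to 1.60). None of these 3 calls was left at 1000 UMIs per cell, where the ratios were 1.08, 1.06 and 0.783 and each interval included 1, and Bach2 stood at 0.952 with each cell weighted alike. In gamma-delta cells only the interval of Foxo1 lay above 1 (1.22, 1.06 to 1.41; 10.4% of all genes), and at 1000 UMIs per cell it did not (1.06, 0.744 to 1.53). The 2 kinds of gamma-delta cells differed here. In those without Trdv4 and Trgv6, Foxo1 stood at 1.49 (1.15 to 1.92), Bach2 at 1.46 (1.05 to 2.06) and Satb1 at 1.35 (1.11 to 1.65). In those with Trdv4 or Trgv6 they stood at 1.14, 1.05 and 0.976, and each interval included 1. These values were not thinned. Id3 did not differ beyond counting error over all Cd3 cells, at 34.6 and 37.2 UPM (1.07, 0.974 to 1.18).

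By gate, intervals below 1 and above 1 were seen for 5 and 3 genes in naive (22.1% and 12.4% of all genes), 5 and 3 in effector (28.4% and 13.1%), 4 and 3 in Foxp3 (18.4% and 9.55%), 4 and 1 in gamma-delta (18.5%, and the share above) and 5 and 3 in ungated cells (25.4% and 14.2%). The fifth lower gene of the effector gate was Id3 at 0.784 (0.618 to 0.993), and without cells that held markers of other cell types it stood at 2.12 (1.42 to 3.20). In effector cells the lower genes past 1.5 were Slamf6 and Dapl1 (11.5% of all genes), of which Dapl1 stood at 1.16 (0.893 to 1.52) with gates that do not use Ccr7 and at 0.561 (0.164 to 1.77) at 1000 UMIs per cell. With both libraries set to the same mix of gates, Tcf7 stood at 0.789, Slamf6 at 0.564 and Foxo1 at 1.27. The naive gate's own gene Ccr7 differed: in naive cells it stood at 813 and 1410.2 UPM. Heat shock and dissociation genes stood there at 2997 and 1524. Without cells that held Hspa1a or Hspa1b UMIs (21.6% and 8.07% of Cd3 cells) Slamf6 stood at 0.573 (0.537 to 0.612), Tcf7 at 0.790 (0.767 to 0.814) and Foxo1 at 1.26 (1.20 to 1.33), about as with them.

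CD4 and CD8 effector cells were also taken singly. The make-up of the effector gate differed between libraries. CD4 cells were 530 of 1174 under anti-IgG and 366 of 1392 under anti-PD1, and CD8 cells were 272 and 425. Trdv4 was read in 3.49% and 8.69% of effector cells. The part of this mix in the ratios of the whole effector gate was not tested. In CD4 effector cells Tcf7 went from 361 to 285 UPM (0.788, 0.703 to 0.882) and in CD8 effector cells from 247 to 161 (0.652, 0.560 to 0.760). Slamf6 stood at 0.667 (0.537 to 0.824) and 0.467 (0.334 to 0.648), Foxo1 at 1.51 (1.26 to 1.81) and 1.42 (1.16 to 1.75) and Satb1 at 1.39 (1.08 to 1.78) and 1.41 (1.08 to 1.84). Past 1.5 downward stood 1 gene in CD4 effector cells (9.71% of all genes), Dapl1 at 0.166 on 18 and 2 UMIs, and 4 in CD8 effector cells (9.23%), with Tcf7, Lef1 at 0.619 (0.494 to 0.775), Slamf6 and Dapl1 at 0.432 (0.243 to 0.749). Past 1.5 upward stood 3 genes in CD4 effector cells (5.97%) and 0 in CD8 effector cells (5.71%). Beside Foxo1 these were Bach2, from 25.5 to 52.6 UPM (2.06, 1.48 to 2.90), and Id3, from 10.5 to 26.0 (2.47, 1.49 to 4.19, on 26 and 43 UMIs), which lies opposite to the 0.784 of the whole effector gate. The top CD4 effector cell held 6 of the 26 Id3 UMIs under anti-IgG and 15 of the 43 under anti-PD1. Id3 was seen in 2.64% (1.45 to 4.39) and 6.28% (4.02 to 9.28) of CD4 effector cells, with overlapping intervals. In CD8 effector cells Bach2 stood at 1.47 (0.972 to 2.26) and Id3 at 1.15 (0.754 to 1.76). In naive CD8 cells gated without Nkg7, Slamf6 went from 200.5 to 89.4 (0.446, 0.359 to 0.553), Id3 had 43 and 100 UMIs (1.68, 1.16 to 2.46), and Foxo1, at 181 and 183, did not differ beyond counting error.

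The third comparison took cells that carry transcripts of the antibody's target. CD8 cells with a Pdcd1 UMI and no Foxp3 or Trdc UMI numbered 98 and 181, at median depths of 5507.5 and 5642 UMIs. Tcf7 was seen in 74.5% (64.7 to 82.8) of them under anti-IgG and 61.9% (54.4 to 69.0) under anti-PD1, and with each cell thinned to 1000 UMIs in 34.7% (25.4 to 45.0) and 19.3% (13.9 to 25.9). Slamf6 was seen in 43.9% (33.9 to 54.3) and 28.7% (22.3 to 35.9), thinned in 12.2% and 5.52%. Tcf7 and Slamf6 together, the stem-like pair, were seen in 36 of 98 (27.2% to 47.1%) and 38 of 181 cells (15.3% to 27.7%), and neither gene in 18.4% (11.3 to 27.5) and 30.4% (23.8 to 37.6). Foxo1 went the other way, from 40.8% (31.0 to 51.2) to 55.8% (48.2 to 63.2), thinned from 10.2% to 16.6% with overlapping intervals. Id3, the third gene often named with stem-like cells, was seen in 12.2% (6.49 to 20.4) and 8.84% (5.14 to 14.0), and a difference was not detectable at this depth. For each of these shares, as found or thinned, the intervals of the 2 libraries overlapped. Among the fewer CD8 cells with at least 2 Pdcd1 UMIs (56 and 106) Tcf7 was seen in 66.1% (52.2 to 78.2) and 64.2% (54.3 to 73.2). Slamf6 was seen there in 46.4% (33.0 to 60.3) and 29.2% (20.8 to 38.9), again with overlapping intervals. Intervals this wide cannot show at which Pdcd1 count the Tcf7 shares differed.

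CD8 cells without a Pdcd1 UMI (642 and 881, at median depths of 4838 and 4386 UMIs) differed in the same direction as found. Tcf7 was seen in 80.8% (77.6 to 83.8) and 70.6% (67.5 to 73.6) of them and Slamf6 in 42.4% and 24.0%. Lower shares as found were thus not limited to Pdcd1-bearing cells, but the anti-PD1 cells were also the shallower ones here. CD4 cells with a Pdcd1 UMI numbered 226 and 211, at median depths of 4125 and 4482 UMIs. As found, Tcf7 was seen in 71.2% (64.9 to 77.0) and 64.0% (57.1 to 70.5) of them. Tcf7 with Slamf6 was seen in 37.6% (31.3 to 44.3) and 26.1% (20.3 to 32.5). Bach2 was seen in 17.7% (13.0 to 23.3) and 31.3% (25.1 to 38.0) as found, but the anti-PD1 cells were the deeper ones here. Pdcd1-bearing cells held less Satb1 than the others of their library: in CD4 cells it was seen in 17.3% against 58.5% under anti-IgG and in 27.0% against 65.5% under anti-PD1.

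**Figure D5:**
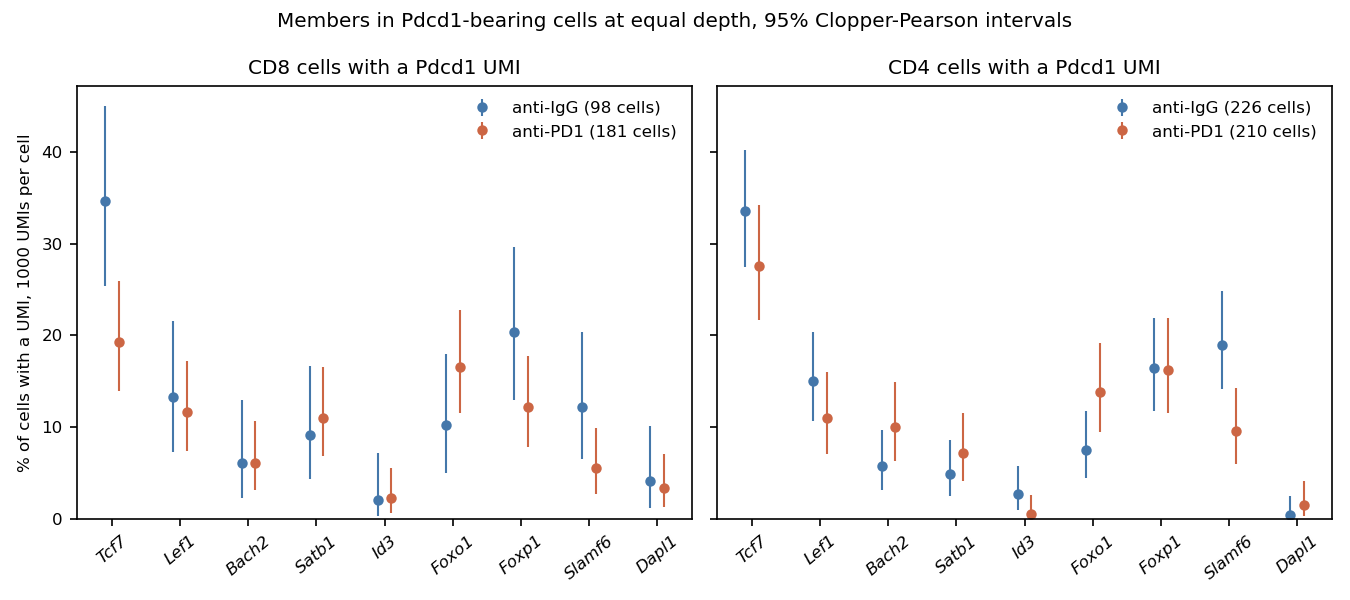
Share of Pdcd1-bearing CD8 (left) and CD4 (right) cells with a UMI of each gene (vertical axis, percent of cells thinned to 1000 UMIs) in the anti-IgG (blue) and anti-PD1 (orange) library, with 95% Clopper-Pearson intervals. For Tcf7 the CD8 shares are 34.7% and 19.3%, with overlapping intervals, and for Foxo1 the anti-PD1 point is the higher one in both panels.

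Genes linked to the members were taken from lists chosen with earlier results of these data known. Of 11 Foxo1 target and homing genes, 3 were lower (11.8% of all genes) and 3 higher (5.88%) past 1.5 over all Cd3 cells. Their median log2 ratio was -0.25 (all genes -0.13). Pik3ip1, an inhibitor of PI3 kinase, stood at 0.505, the survival gene Bcl2 at 0.630 and Il6ra at 0.652, while Ccr7 stood at 1.70, Ctla4 at 1.55 and the follicular regulator Bcl6 at 2.49. Leaving out the genes the gates use, 6 of 9 were at least 1.5 times higher in the naive than in the effector gate in both libraries and 1 lower, against 6.26% and 20.1% of all genes. Of 18 naive and central memory genes, 0 were lower (11.8% of all genes) and 1 was higher (5.88%) past 1.5 (median -0.05). Il4ra stood at 1.77, Ramp1 at 1.33 and Gimap6 at 1.20, and Arl4c at 0.670, Tspan32 at 0.676 and Ltb at 0.778. Of these 18, 12 were higher in naive than in effector cells (6.26% of all genes) and 0 lower (20.1%).

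Of 13 measured stem-like and follicular genes, 8 were higher (5.88% of all genes) and 2 lower (11.8%) past 1.5 (median 0.73). Bcl6 and Pou2af1, at 2.42, and Myb, at 2.38, were the highest, and Cd200, at 0.522, Cxcr3, at 0.569, and Tnfsf8, at 0.738, the lowest. Pou2af1 rests on 86 and 263 UMIs. B cell markers within Cd3 cells stood at 66.5 and 148 UPM, and their part in this list was not tested. By the intervals of the list genes, 8 of the 13 lay above 1, against 16.9% of all genes, and 4 below 1, against 38.7%. The list thus held genes on both sides of 1. Of 11 of them measured in both gates, 2 were higher in naive (6.26% of all genes) and 5 in effector cells (20.1%). Of 20 effector and exhaustion regulators, 7 were higher (5.88% of all genes) and 0 lower (11.8%) past 1.5 (median 0.21). The highest were Nr4a3 at 5.33, Nr4a1 at 4.85 and Nr4a2 at 4.81. The lowest were Maf at 0.695, Id2 at 0.738 and Prdm1, which encodes the repressor BLIMP-1, at 0.883. Of 19 measured in both gates, 14 were lower in naive cells (20.1% of all genes) and 0 higher (6.26%).

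Relatives of the members did not follow them as one. Of 15 measured paralogs, 2 were higher (5.88% of all genes) and 0 lower (11.8%) past 1.5 (median 0.02). Bach1 at 1.55, Id1 at 1.51 and Dap at 1.37 were the highest and Cd84 at 0.683, Cd48 at 0.691 and Id2 at 0.738 the lowest. Cd84 and Cd48 belong to the SLAM family of Slamf6. In naive cells 4 of 11 paralogs were lower than in effector cells (20.1% of all genes) and 0 higher (6.26%). Of 24 measured partners and cofactors, 2 were higher (5.88% of all genes) and 0 lower (11.8%) past 1.5 (median -0.09). The small Maf genes Maff, at 2.83, and Mafk, at 2.06, whose proteins pair with BACH2, were the highest with Tle1, a corepressor of TCF-1 and LEF-1, at 1.43. Pygo2 at 0.722, Tcf4 at 0.757 and Bcl9 at 0.803 were the lowest. In naive cells 3 of the 24 were higher (6.26% of all genes) and 1 lower (20.1%) than in effector cells.

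Across 12 groups of cells (CD4 naive, CD8 naive, CD4 effector, CD8 effector, Foxp3 and gamma-delta cells of each library) the genes closest in log2 level to each member, among 10069, were as follows. Bach2 and Satb1 were each among the 3 nearest genes of the other (r = 0.98), and Foxp1 had Lef1 among its own (r = 0.98) with Bambi-ps1 and Gabrr2. Lef1 was nearest to Nsg2, Bambi-ps1 and Cmah (r = 0.98 for each). Bach2 also had Gm32633 and Gm37248, and Satb1 had Gm37248 and Patj; Gm37248 overlaps Satb1 on the same strand, so their reads may be split between them. Tcf7 was nearest to the ribosomal protein genes Rpl22, Rps19 and Rps16 (r = 0.97), and Dapl1 to Rpl10a, Rpl36a and Actn1 (r = 0.98). Slamf6 had Ccpg1 (0.96), Pip4k2a (0.95) and Arhgef18 (0.94), Foxo1 had Tbc1d15 (0.96), Il4ra (0.95) and Zhx2 (0.95), and Id3 had Ube2d2a (0.92), Kdm5b (0.90) and Hbs1l (0.90). Between members r ran from 0.98 for Bach2 with Satb1 and for Lef1 with Foxp1 down to 0.32 for Foxo1 with Slamf6. These 12 points share libraries and depth, and no p is given.

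In the annotation (GENCODE vM21, mouse build GRCm38, which is mm10) Slamf6 lies at chr1:171917515-171953170 on the plus strand, Dapl1 at chr2:59484653-59505020 on the plus strand, Foxo1 at chr3:52268336-52353221 and Lef1 at chr3:131110471-131224356, both on the plus strand. Bach2 lies at chr4:32238804-32586108 and Id3 at chr4:136143497-136145755, both on the plus strand, Foxp1 at chr6:98925338-99522721, Tcf7 at chr11:52252371-52283014 and Satb1 at chr17:51736187-51833290, all on the minus strand. Id3 and Dapl1 overlap no other annotated gene, and the other 7 each overlap between 1 and 6. Foxp1 overlaps the coding gene Gm20696 on its own strand, and Tcf7, Lef1, Bach2, Foxo1 and Slamf6 each overlap an antisense gene. How reads of such pairs were assigned is not stated in the labels or file headers.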

How the data were processed

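The deposited values were raw UMI counts per gene and barcode in 2 single-cell libraries, with Cell Ranger 7.1.0 named per the file headers. Version 7.2.0 is named, beside mm10 and Seurat 4.4.0, per the submitters' processing notes. Only barcodes called as cells were in the files. The labels' protocols name a 3' kit, whose version the first bases of the barcodes do not bear out, so it is given as labelled. Of the 55357 gene IDs, 52081 are in GENCODE vM21. No column of another sample was present (0).

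Counts were summed over the cells of a gate and divided by their total. Ratios have exact 95% intervals conditional on the summed UMIs, shares have Clopper-Pearson intervals, and genes with 0 UMIs in a library were set to 3 counts when all genes were tallied. The ratio step was tested on simulated data for all Cd3 cells with 12849 genes: intervals left out 1 for 96.0% of genes made at 0.500, 72.0% at 0.667, 94.0% at 1.50, 98.0% at 2.00 and 4.66% of unchanged genes.

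The members, gates and gene lists were chosen with earlier results of these data known. Named genes were all 9 members, up to the 3 highest and 3 lowest ratios of each list among genes with at least 100 summed UMIs, and, for each member, the 3 genes with at least 200 summed UMIs and the highest Pearson correlation of log2(UPM + 10). The co-detection pairs, splits of the gamma-delta and CD8 gates and the printed sequences were picked after values had been seen. The second naive gate gene is not reported here. No doublets were removed in the main values. Scrublet (scanpy 1.11.5) marked 0 and 4 cells, so as an alternative the 149 and 272 highest scores were removed, at 0.8% per 1000 cells. Python 3.11.15, numpy 2.4.6, scipy 1.17.1, pandas 2.3.3 and matplotlib 3.10.9 were used.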

Additional observations from a re-analysis of the deposited data

How the results depend on the processing

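Over all Cd3 cells, none of the 9 ratios crossed 1 in the 11 alternatives tried: Tcf7 ranged from 0.769 to 0.853, Slamf6 from 0.553 to 0.609 and Foxo1 from 1.23 to 1.39. Results in the small gates moved more. With cells thinned to 1000 UMIs, intervals above 1 were left for 1 gene in naive, 0 in Foxp3 and 0 in gamma-delta cells, and intervals below 1 for 2 in effector and 2 in Foxp3 cells. The intervals were wider and estimates moved too: 19 of the ratios over all Cd3 cells and gates moved out of their unthinned intervals, and 2 more that had been called changed side of 1. Id3 in effector cells then stood at 1.52 and Bach2 in Foxp3 cells at 0.783, and Tcf7 in Pdcd1-bearing CD8 cells at 34.7% and 19.3%. With at least 2 Pdcd1 UMIs these shares were 66.1% and 64.2%. With each cell weighted alike these ratios were 1.52 and 0.952. Id3 in effector cells stood at 2.12 without cells with markers of other cells, where intervals below 1 were left for 2 genes in Foxp3 cells, as they were with median of ratios size factors (2). In gamma-delta cells 2 genes lay above 1 with doublets removed, and 2 with 2 UMIs asked for the Foxp3 and gamma-delta gates. With gates that do not use Ccr7, Dapl1 in effector cells stood at 1.16, and 3 genes lay below 1 there. Without cells with Hspa1a or Hspa1b UMIs, an alternative chosen after seeing the data, Dapl1 in gamma-delta cells stood at 1.01, with 2 genes below and 4 above 1. At a minimum of 200 summed UMIs, 7.27% of all genes were lower past 1.5. The cause of these shifts was not tested unless stated.

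The naive over effector count was 8 or 9 of 9 in all 7 alternatives. Effector genes without Nkg7, barcodes in 1 library only and cells with at least 2000 UMIs were also added after seeing the data. Weighting cells alike or setting 1 mix of gates gives no interval and so no such counts. No paired analysis was possible because each group is 1 library, and no library could be left out.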

Other observations

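B cells without Cd3 UMIs (54 anti-IgG and 129 anti-PD1 cells) also held Bach2, Foxo1, Foxp1 and Satb1 transcripts. Satb1 stood there at 139 and 345 UPM, a ratio of 2.48 (1.66 to 3.82), and Foxo1 at 181 and 321, a ratio of 1.78 (1.23 to 2.62). Bach2, at 204 and 239 (1.17, 0.808 to 1.72), Foxp1, at 608 and 616 (1.01, 0.815 to 1.27), and Slamf6, at 135 and 98.3 (0.730, 0.437 to 1.23), did not differ beyond counting error. Tcf7 had 2 and 1 UMIs and Dapl1 1 and 0 in these cells.

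In macrophages (49 and 105 cells without Cd3 UMIs) Id3 had 4 and 52 UMIs, a ratio of 7.29 (2.68 to 27.7), seen in 3 and 17 cells. In fibroblasts (20 cells in each library) Id3 went from 1427 to 1928 UPM (1.35, 1.17 to 1.57) and in endothelial cells (105 and 83) from 418 to 553 (1.32, 1.13 to 1.55). Slamf6 was seen in 23.8% and 30.1% of endothelial cells, where Tcf7 was seen in 4.76% and 1.20%, at median depths of 7564 and 7062 UMIs. Its level there was 44.9 and 71.4 UPM (1.59, 0.989 to 2.57), against 88.7 and 46.3 in the effector gate of Cd3 cells. In macrophages Slamf6 stood at 3.25 and 0 UPM.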
